A study of Mus musculus with 21 samples.

Results

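Ostn, which encodes the secreted muscle peptide musclin, and the 3 natriuretic peptide receptor genes Npr1, Npr2 and Npr3 were examined in the gastrocnemius of trained, untrained and detrained mice. These 4 genes were taken by symbol from a table of read counts for 40853 genes, and all 4 passed the filter on low counts. Ostn was selected on the differences between groups in these same libraries, because it is one of the transcripts that the study named as changed by activity reduction. The receptors were added as the known binding partners, with earlier results of these data already known. Each of 21 female C57BL/6NJ mice, 7 per group, gave 1 poly(A) library from the medial gastrocnemius belly. Mice entered the study at 10 weeks of age. The Inactive group stayed in standard housing with enrichment for 6 weeks, the Active group ran on the treadmill for 6 weeks on 5 days per week, in sessions that were lengthened over the first weeks to 40 min including a slower warm up, with the main part at about 70% of maximal speed, and the Activity Reduction group trained in the same way for 4 weeks and then stopped for 2 weeks. All mice, the Inactive mice included, ran a maximal test 48 to 72 h before the tissue was taken, so no group was free of recent exercise, and all were fasted before collection, for 5 to 6 h by the deposited description.

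Musclin, also called osteocrin, is a peptide hormone released by muscle fibres and bone cells. Natriuretic peptides act through a pair of receptors, encoded by Npr1 and Npr2, that carry a guanylyl cyclase and make cyclic GMP (cGMP) when a ligand binds. Npr1 is the main receptor of the atrial and brain peptides (Nppa and Nppb), and Npr2 that of the C-type peptide (Nppc). The product of Npr3 has no cyclase, takes the peptides up and clears them, and can signal through inhibitory G proteins. Musclin binds the Npr3 receptor far better than the cyclase receptors, and by occupying it can spare the natriuretic peptides from clearance. Insulin raises Ostn in muscle, and FoxO1 is known to repress it.

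The part of the Ostn coding sequence that resembles the natriuretic peptides is shown beside the same part of the ligand genes Nppb and Nppc, because this resemblance is the link between musclin and the receptors. Each stretch covers 51 bases of GRCm39, 5′ to 3′ on the coding strand. The capitals mark 8 codons for phenylalanine and glycine, 3 further residues of any kind, and aspartate, arginine and isoleucine.
Ostn: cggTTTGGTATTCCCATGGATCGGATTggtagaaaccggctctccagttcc
Nppb: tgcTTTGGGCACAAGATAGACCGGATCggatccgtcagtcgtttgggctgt
Nppc: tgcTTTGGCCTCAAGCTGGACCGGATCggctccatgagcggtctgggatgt
The Ostn stretch lies at chr16:27165646-27165696 on the plus strand, in exon 4, with the motif starting at codon 113 of 130. The others lie at chr4:148070921-148070971 (Nppb, plus strand, exon 2) and chr1:86597389-86597439 (Nppc, minus strand, exon 2). In both ligand genes a cysteine codon stands just before the motif and 1 more follows within the stretch, and these cysteines close the ring of the mature natriuretic peptides. The Ostn stretch had neither. Of 21766 mouse coding sequences searched in frame, 5 held the motif (0.023%), these 3 among them.

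By the GENCODE vM39 annotation of GRCm39, Ostn (ENSMUSG00000052276) lies on chromosome 16 from 27125355 to 27171028 on the plus strand, with 5 exons in its reference transcript. Npr1 (ENSMUSG00000027931) lies on chromosome 3 from 90356458 to 90373748 on the minus strand, with 22 exons. Npr2 (ENSMUSG00000028469) lies on chromosome 4 from 43631339 to 43651436 on the plus strand, with 22 exons. Npr3 (ENSMUSG00000022206) lies on chromosome 15 from 11839982 to 11907373 on the minus strand, with 8 exons. Each of the 4 shares a part of its exons with a gene on the opposite strand, the largest part being 7.99% in Npr1 (Gm16048) and 6.69% in Ostn (Gm32312). How strand was treated in counting is not given in the sources used here, so reads in these parts cannot be assigned. Gm32312, the partner of Ostn, had between 0 and 11 counts per library.

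The libraries held between 38482455 and 59785132 counted reads. Transcripts of 24 liver genes divided them into 8 libraries with more (1 Inactive, 5 Active and 2 Activity Reduction) and 13 with fewer (6, 2 and 5), with median Alb levels of 784 and 118 CPM (counts relative to the library total). The 8 libraries came from the mice with the 8 lowest numbers in the labels. Summed Myh1, Myh2, Myh4 and Myh7 counts had medians of 82879, 95529 and 91240 CPM in the Inactive, Active and Activity Reduction groups. Of these counts, Myh4, the myosin of the fastest fibres, made up 90.3% ± 1.13 (SD, n = 7), 91.1% ± 1.27 and 91.1% ± 1.40 in the same order. This share is taken among myosins, so it does not measure muscle content. Myh7, the slow-fibre myosin, had 473 to 687 CPM in Inactive, 199 to 617 in Active and 92.3 to 497 in Activity Reduction libraries. Its medians were 563, 523 and 344 CPM. In whole muscle, fewer cells of a type and less RNA per cell cannot be told apart.

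Ostn was on average lower in the Activity Reduction group than in both other groups. In normalized counts (counts divided by DESeq2's size factors), Inactive libraries had a lowest value of 2462, a median of 2940 and a highest value of 3929. Active libraries had 2433, 2774 and 2838. Activity Reduction libraries had 1522, 2020 and 2825. Of the 7 Activity Reduction libraries, 6 lay below every Inactive and every Active library, and replicate 2, at 2825, was the exception. The Inactive and Active groups overlapped, although all 7 Active libraries lay below the Inactive median.

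**Figure D1:**
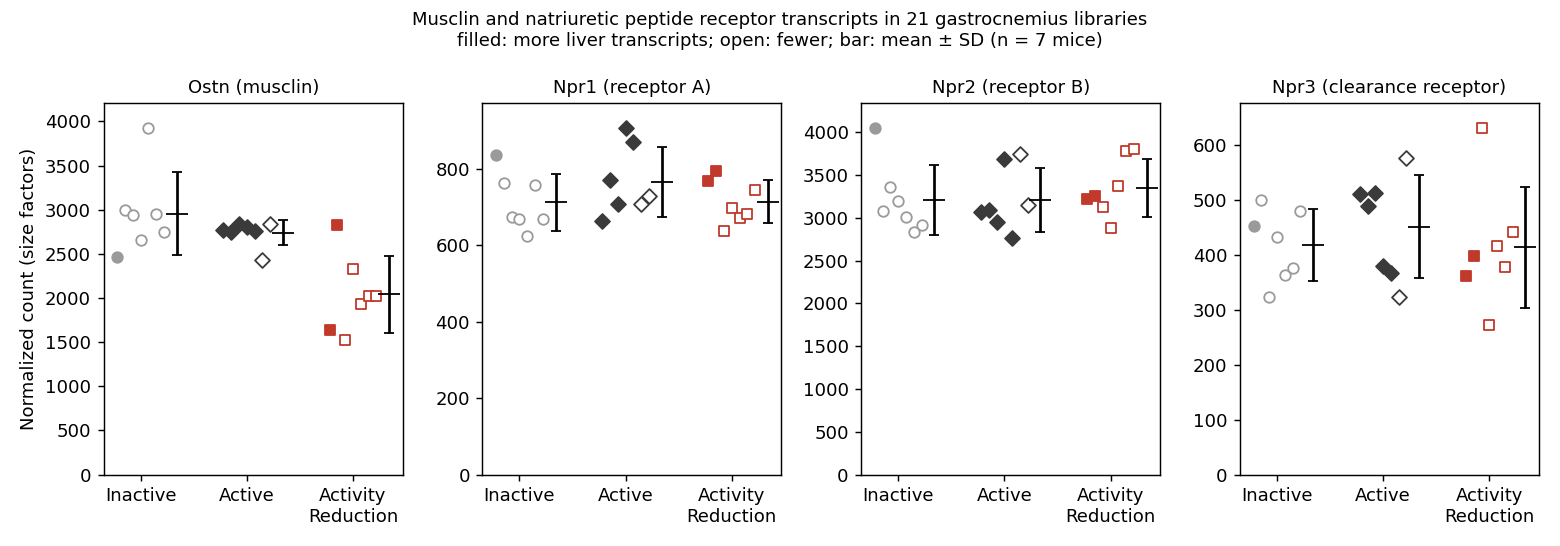
Normalized counts (y axes, from 0) of Ostn, Npr1, Npr2 and Npr3 in each of the 21 libraries, with circles for Inactive, diamonds for Active and squares for Activity Reduction. Filled points are the 8 libraries with more liver transcripts, open points the 13 with fewer, and each black bar is a group's mean ± SD (n = 7 mice). In the Ostn panel, 6 of the 7 squares lie below all other points, and in the receptor panels the groups overlap.

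The mean for Ostn was 2954 ± 470 (SD, n = 7) for Inactive, 2741 ± 140 for Active and 2041 ± 436 for Activity Reduction mice. The spread itself was unequal, with a coefficient of variation of 15.9%, 5.12% and 21.4%. The Active mice thus had the most uniform level, and their values other than 2433 (replicate 6) lay between 2744 and 2838. On the log2 scale of the edgeR model, the difference was -0.53 (SE 0.107) for Activity Reduction against Inactive, -0.43 (SE 0.107) for Activity Reduction against Active and -0.10 (SE 0.107) for Active against Inactive. These are given as a description with no test, because Ostn was chosen by its differences between these groups, and both Activity Reduction comparisons rest on the same 7 Activity Reduction libraries.

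The Ostn values were also set out within the division by liver transcripts. Among the 13 libraries with fewer liver transcripts, the 5 Activity Reduction libraries (1522 to 2323) lay below the 6 Inactive libraries (2656 to 3929) and the 2 Active libraries (2433 and 2838). The log2 ratio of means in these libraries was -0.63 against Inactive and -0.42 against Active. Among the 8 libraries with more, the 5 Active libraries were within 2744 to 2833, the single Inactive library had 2462, and the 2 Activity Reduction libraries had 1636 and 2825. There the log2 ratio of means was -0.14 against Inactive and -0.32 against Active, each resting on 2 Activity Reduction libraries. Between the Active and Inactive groups the direction differed between the divisions, with a log2 ratio of -0.20 among the libraries with fewer liver transcripts and 0.18 among those with more, where the Inactive group had 1 library.

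Single libraries moved the size but not the sign of the Ostn differences. Ostn was chosen for its Activity Reduction differences in these same libraries, so a kept sign there adds no support for them. When each library was left out in turn, the log2 fold change of Activity Reduction against Inactive ranged from -0.63 (without Activity Reduction replicate 2) to -0.45 (without Inactive replicate 5). Against the Active group it ranged from -0.52 to -0.37. For Active against Inactive it was -0.02 without Inactive replicate 5, the library with the highest value, and -0.14 without Inactive replicate 1.

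The receptor transcripts were not detectably different between any of the groups. No call was made for Npr1, Npr2 or Npr3 at an adjusted p-value under 0.05 and a log2 fold change over 0.25 in either direction. The study's methods give these values but no scale for the fold change, while a figure legend of the study states the cut-off as a percent change. The log2 scale was chosen here. Few genes of any kind passed them. Of 16129 genes tested with edgeR's quasi-likelihood test, the share called was 0% for Active against Inactive, 0.0124% for Activity Reduction against Inactive and 0% for Activity Reduction against Active. With DESeq2 on the 3 groups it was 0.424%, 0.252% and 0.869%, and no receptor was called there either. At an unadjusted p-value under 0.05 in edgeR, 10.9%, 7.73% and 13.3% of genes differed, and 0 of the 3 receptors did in any comparison.

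Npr1, the cyclase receptor of the atrial and brain peptides, had 623, 674 and 836 normalized counts as the lowest value, the median and the highest value of the Inactive group. It had 663, 729 and 907 in Active mice and 638, 696 and 794 in Activity Reduction mice. The means were 713 ± 74.4, 765 ± 90.8 and 713 ± 56.4 (SD, n = 7 each), and the 3 groups overlapped. The largest difference was 0.11 on the log2 scale for Active against Inactive, with a 95% interval from -0.05 to 0.27 (edgeR, adjusted p = 0.626). For Activity Reduction the difference was 0.01 against Inactive (interval -0.15 to 0.16, edgeR adjusted p = 0.996) and -0.10 against Active (interval -0.26 to 0.06, adjusted p = 0.579). With a term for the liver division in the model, the difference was 0.0018 for Active against Inactive and -0.02 for Activity Reduction against Active. In the libraries with more liver transcripts, the Inactive library had 836 and the 2 Activity Reduction libraries 767 and 794, the highest values of their groups. The 2 highest Active values, 907 and 869, were also in these libraries.

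Npr2, the cyclase receptor of the C-type peptide, had the most counts of the 3 receptors. Its lowest value, median and highest value were 2839, 3077 and 4052 normalized counts among Inactive mice, 2761, 3091 and 3745 among Active mice, and 2886, 3250 and 3799 among Activity Reduction mice. The means were 3206 ± 412, 3208 ± 371 and 3347 ± 338 (SD, n = 7 each), and the ranges overlapped almost throughout. The log2 difference was 0.01 for Active against Inactive (95% interval -0.16 to 0.18, edgeR adjusted p = 0.986), 0.07 for Activity Reduction against Inactive (interval -0.10 to 0.24, adjusted p = 0.929) and 0.06 for Activity Reduction against Active (interval -0.11 to 0.23, adjusted p = 0.789). The Inactive value of 4052 was the only Inactive library with more liver transcripts. Among the 13 libraries with fewer, the log2 ratio of means was 0.17 for Active and 0.15 for Activity Reduction, both against Inactive.

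Npr3, the clearance receptor and the one that musclin binds best, varied most between mice. Its lowest value, median and highest value were 323.4, 433 and 499 normalized counts among Inactive mice, 323.4, 488 and 575 among Active mice, and 272, 398 and 631 among Activity Reduction mice. The last group held both the lowest and the highest of all 21 values, in replicates 4 and 3. The means were 418 ± 64.9, 451 ± 93.7 and 414 ± 110 (SD, n = 7 each). The log2 difference was 0.12 for Active against Inactive (95% interval -0.20 to 0.43, edgeR adjusted p = 0.826), -0.01 for Activity Reduction against Inactive (interval -0.32 to 0.31, adjusted p = 0.996) and -0.12 for Activity Reduction against Active (interval -0.44 to 0.19, adjusted p = 0.760). The pooled SD within groups on the log2 scale was 0.31 for Npr3, against 0.14 for Npr1, 0.16 for Npr2 and 0.22 for Ostn. The 3 intervals for Npr3 reach beyond a log2 change of 0.25, and so do those for Npr1 in both comparisons with the Active group, on one side. A change of the size of the threshold could be missed there. The other intervals of Npr1 and Npr2 lie within 0.25 of 0.

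**Figure D2:**
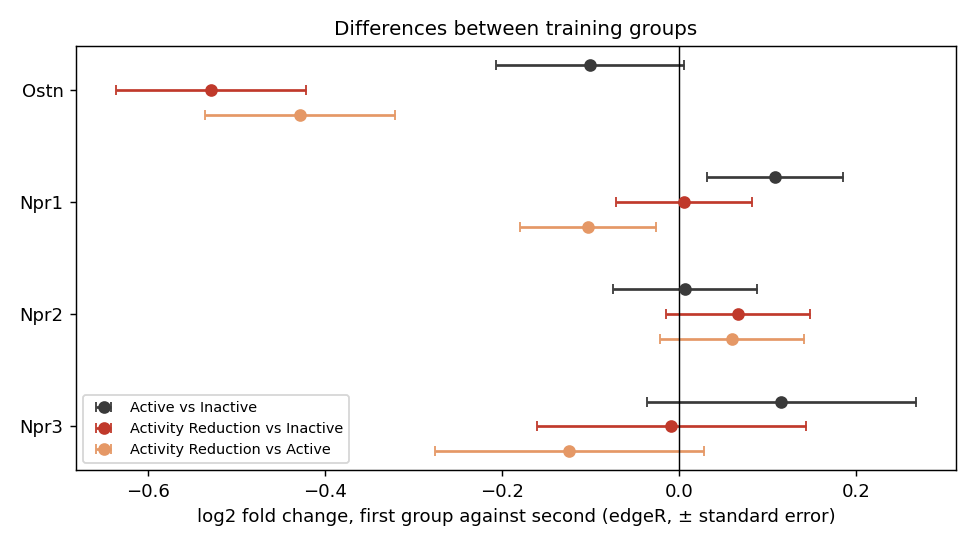
Log2 fold change (x axis) of Ostn and the 3 receptor genes for the 3 comparisons, from the edgeR model of 21 libraries, with bars of ± 1 standard error. The Ostn values for Activity Reduction are -0.53 and -0.43, and those of the receptors lie between -0.12 and 0.12. Ostn was chosen by its differences between these groups, so its distance from 0 is a description and not a test.

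Levels of different genes were compared per length, as CPM divided by the length in kilobases. With the length of all annotated exons, the order was Ostn, Npr2, Npr1, Npr3 in 21 of 21 libraries. The mean levels in the Inactive, Active and Activity Reduction groups were 21.8 ± 3.26, 20.3 ± 1.27 and 14.7 ± 2.96 CPM per kb for Ostn (SD, n = 7). They were 6.18 ± 0.882, 6.18 ± 0.726 and 6.27 ± 0.670 for Npr2, 2.01 ± 0.226, 2.16 ± 0.287 and 1.96 ± 0.183 for Npr1, and 0.685 ± 0.112, 0.738 ± 0.149 and 0.659 ± 0.175 for Npr3. Musclin transcripts thus outnumbered those of each receptor on this scale, by 3.61 ± 0.820 times for Npr2 in the Inactive group and by 2.37 ± 0.595 times in the Activity Reduction group.

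The order of neighbours depended on the length used. Npr3 has 12430 bases of annotated exons but a reference transcript of 2944 bases, and Npr2 has 10571 and 4448. With the reference transcript, the Npr1 level was below the Npr3 level in 15 of 21 libraries, and the 2 genes overlapped in each group (2.40 ± 0.271 and 2.89 ± 0.474 CPM per kb in the Inactive group). The Ostn level stayed above that of Npr2 in 16 of 21 libraries on this scale. In the other 5, all from the Activity Reduction group, Npr2 was the higher. The lowest ratio of Ostn to Npr2 was 1.06 among Inactive libraries, 1.13 among Active libraries and 0.849 among Activity Reduction libraries. Relative to Npr3, the Npr2 level was 5.19 ± 1.02 times as high in Inactive mice, 4.95 ± 1.54 times in Active mice and 5.62 ± 1.20 times in Activity Reduction mice (reference transcripts, SD, n = 7), so the balance of this cyclase receptor and the clearance receptor differed between groups by less than its spread.

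**Figure D3:**
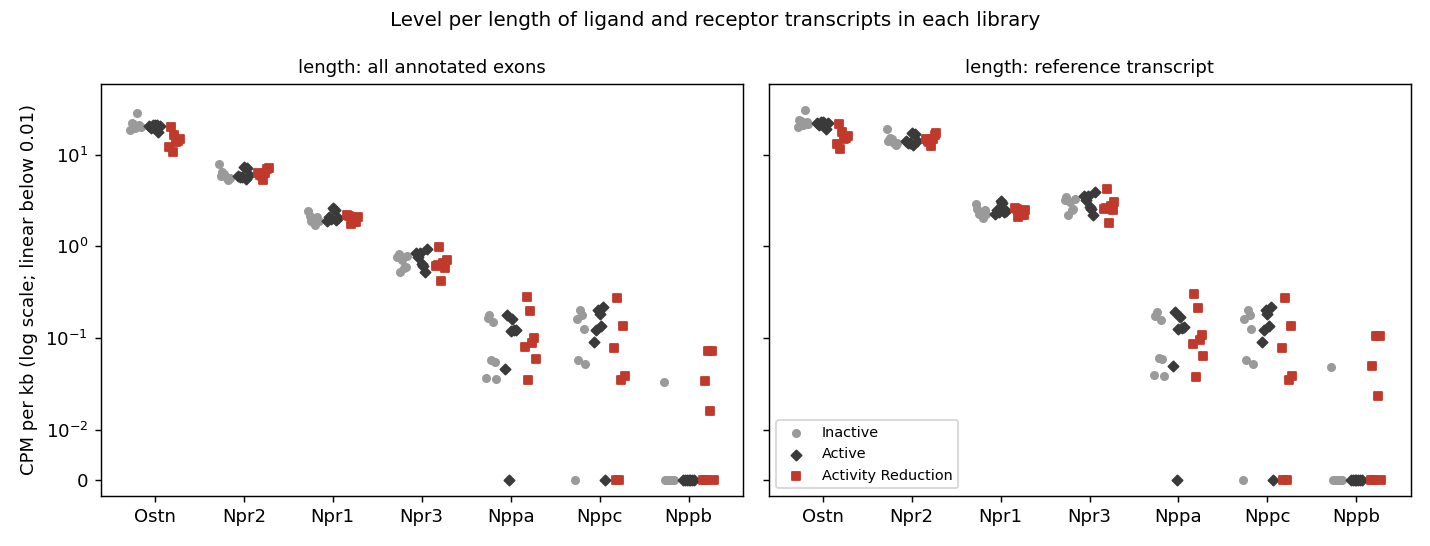
CPM per kilobase (y axis, log scale, linear below 0.01) of Ostn, the 3 receptors and the 3 natriuretic ligands in each of the 21 libraries, with the length of all annotated exons (left) and of the reference transcript (right). Ostn is the highest in all libraries on the left, Npr1 and Npr3 change places on the right, and the ligands lie below all receptors on both sides.

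The natriuretic ligands themselves were close to the limit of detection in this muscle. Nppa had 0 to 15 raw counts per library, Nppc 0 to 16, and Nppb 0 to 4 with 0 in all 7 Active libraries. A count of 0 does not show that a transcript was absent. None of the 3 passed the filter on low counts, so none was tested. With the length of all exons, the highest library reached 0.283 CPM per kb for Nppa, 0.273 for Nppc and 0.072 for Nppb, below the lowest value of any receptor (0.423, Npr3). Nppa is also a marker of heart muscle. Of 5 heart markers listed, 4 were detected in each group, at a summed level of 1.99 to 5.35 CPM over all libraries, and Myl7 was at 0 in every library.

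The other genes of natriuretic peptide and cGMP signalling were followed in a list of 34 genes, of which 29 were tested. None was called in any comparison with edgeR or with DESeq2 on the 3 groups. In Activity Reduction against Active, 25 of the 29 had a log2 fold change below 0, with a median of -0.16 against a median of -0.0006 for all genes tested. At an unadjusted p-value under 0.05, 7 of 29 (24.1%) differed, beside 13.3% of all genes. All 7 were lower in the Activity Reduction group, where 6.44% of all genes were lower at that level. In Active against Inactive 2 of 29 differed at that level (6.90%), both higher, beside 10.9% of all genes. In Activity Reduction against Inactive it was 2 of 29 (6.90%), both lower, beside 7.73% of all genes. The comparisons share groups of libraries with each other, so these directions are not independent.

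Among enzymes that process or break down the peptides, Pcsk6, a convertase that activates the peptide-cleaving protease corin, had 469 ± 101 normalized counts in Inactive, 626 ± 232 in Active and 404 ± 60.02 in Activity Reduction mice (SD, n = 7). Its log2 difference between Activity Reduction and Active was -0.64 (SE 0.184, edgeR adjusted p = 0.154), the smallest adjusted p-value in the lists, and that between Active and Inactive was 0.42 (adjusted p = 0.416). Mme, which encodes neprilysin, the protease that degrades natriuretic peptides, had 169 ± 36.7, 212 ± 64.8 and 155 ± 39.1 normalized counts, with a log2 difference of -0.45 between Activity Reduction and Active (edgeR adjusted p = 0.318). Groups overlapped for both genes. In the same order, the medians were 429, 501 and 386 for Pcsk6 and 181, 170 and 156 for Mme. Active replicates 1, 3 and 5 had the highest Active values of both genes.

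Downstream of cGMP, Prkg1, the main cGMP-dependent kinase, had 1740 ± 245, 1841 ± 111 and 1587 ± 213 normalized counts in the 3 groups, a log2 difference of -0.22 between Activity Reduction and Active (edgeR adjusted p = 0.281). Mrvi1 (also named Irag1), a substrate of that kinase at calcium stores, had 271 ± 45.0, 273 ± 42.1 and 229 ± 32.3. Rgs2, a kinase target that dampens signalling by Gq, had 235 ± 43.9, 245 ± 68.9 and 178 ± 35.2, with a log2 difference of -0.46 from Active (edgeR adjusted p = 0.209) and -0.40 from Inactive (adjusted p = 0.552). Gucy1b1, a subunit of the soluble guanylyl cyclase that makes cGMP in response to nitric oxide, had 276 ± 21.3, 297 ± 43.1 and 258 ± 35.5. Its log2 difference in Activity Reduction was -0.21 from Active (edgeR adjusted p = 0.359) and -0.09 from Inactive (adjusted p = 0.897). Gnai1, an inhibitory G protein subunit of the kind to which the Npr3 receptor couples, had 133 ± 33.5, 167 ± 42.0 and 119 ± 20.7, and its log2 difference between Activity Reduction and Active was -0.49 (edgeR adjusted p = 0.231). Its relative Gnai3 differed by 0.18 between Active and Inactive (adjusted p = 0.383). Of 9 phosphodiesterases tested, which break down cyclic nucleotides, 8 were below 0 in Activity Reduction against Active and 0 had an unadjusted p-value under 0.05.

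**Figure D4:**
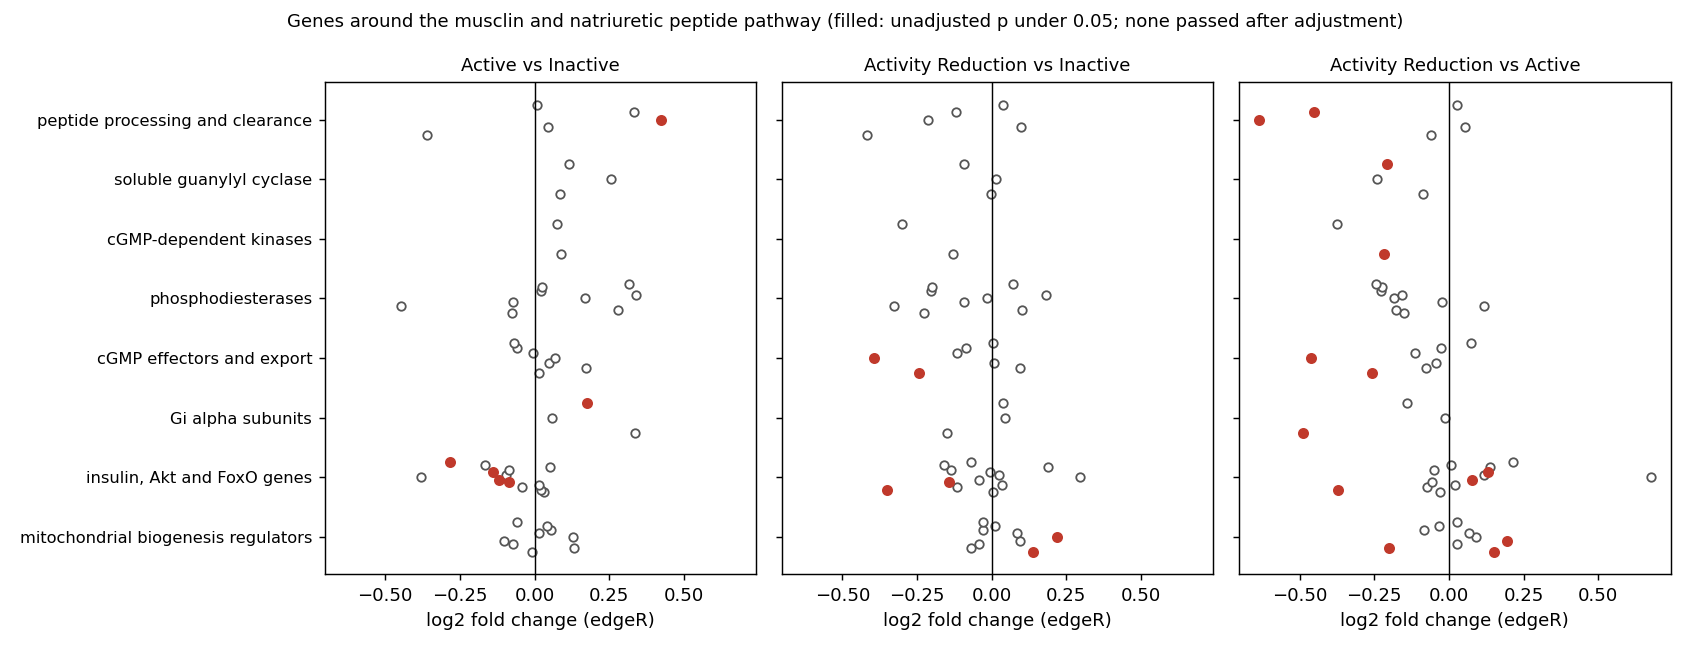
Log2 fold change (x axes, edgeR) of each tested gene of the lists around musclin and the natriuretic peptides, by list (y axis) and comparison (panels). Filled points have an unadjusted p-value under 0.05 and no gene passed after adjustment. In the right panel 25 of the 29 natriuretic and cGMP genes lie left of 0.

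Several of these genes are also expressed by vascular cells, and markers of some other cell types had differences of the same sign. In Activity Reduction against Active, the log2 difference was below 0 for 5 of 7 endothelial markers (median -0.17), 5 of 5 fibroblast markers (-0.39), 5 of 5 adipocyte markers (-0.39), 4 of 5 macrophage markers (-0.45) and 24 of 24 liver genes (-0.93), none of them called. It was below 0 for 3 of 4 smooth muscle markers (median -0.02), 3 of 4 Schwann cell markers (-0.27) and 1 of 2 heart markers (-0.22). The 4 myosin heavy chain genes were all below 0 as well (median -0.06). The summed endothelial level had a range of 263 to 344 CPM in the Active group and 236 to 279 CPM in the Activity Reduction group, and that of fibroblasts 219 to 336 and 154 to 220 CPM. No endothelial or fibroblast marker was at 0 in any library. With a term for the liver division added to the model, 5 of the 29 pathway genes were lower at an unadjusted p-value under 0.05, 4 of them among the 7 above, beside 5.18% of all genes. In the 13 libraries with fewer liver transcripts, which included 2 Active mice, 2 of 30 tested were lower, 1 of them among the 7, beside 2.39% of all genes, and 1 was higher, while 26 of the 30 lay below 0 with a median of -0.17. The part of other cell types in these values was not tested.

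Insulin, Akt and FoxO signalling, which regulates Ostn, was followed in 13 genes, among them FoxO targets such as Gadd45a. All were tested and none was called. Foxo1, the forkhead factor that represses Ostn, had 717, 1006 and 3650 normalized counts as the lowest value, median and highest value of the Inactive group, 688, 1026 and 1490 for Active mice, and 794, 1370 and 2888 for Activity Reduction mice. The groups overlapped. The log2 difference between Activity Reduction and Active was 0.68 with a 95% interval from -0.05 to 1.41 (edgeR adjusted p = 0.416). Between Activity Reduction and Inactive it was 0.30, with an interval from -0.43 to 1.02 (adjusted p = 0.921). Irs1, an adaptor of the insulin receptor, had 3920 ± 1100, 3963 ± 909 and 3065 ± 449 normalized counts, a log2 difference of -0.37 from Active (edgeR adjusted p = 0.340) and of -0.35 from Inactive (adjusted p = 0.644). Differences of the kinase genes were small. Akt1 differed by -0.14 on the log2 scale between Activity Reduction and Inactive (2149 ± 148 and 2379 ± 76.9, edgeR adjusted p = 0.344) and by -0.09 between Active and Inactive. Akt2 had 16117 ± 875, 14761 ± 717 and 15614 ± 403, and Foxo4, another forkhead factor, had 11695 ± 481, 10580 ± 527 and 11603 ± 763. Both had their lowest mean in the Active group, with log2 differences of -0.12 and -0.14 from Inactive (both edgeR adjusted p = 0.266). Gadd45a, a stress gene under FoxO control, differed by -0.28 between Active and Inactive (adjusted p = 0.383).

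Musclin has been linked to mitochondrial biogenesis, and 9 regulators of it were listed, all tested and none called. Ppargc1a, the coactivator that drives this programme, had 1649 ± 88.3, 1630 ± 99.1 and 1811 ± 242 normalized counts in the Inactive, Active and Activity Reduction groups. Its log2 difference in Activity Reduction was 0.15 from Active (edgeR adjusted p = 0.341) and 0.14 from Inactive (adjusted p = 0.644). Esrra, its nuclear receptor partner, differed by 0.22 between Activity Reduction and Inactive (5617 ± 668 and 4840 ± 288, adjusted p = 0.344), and Ppard, a lipid-sensing nuclear receptor, by 0.20 between Activity Reduction and Active (1584 ± 81.6 and 1382 ± 134, adjusted p = 0.180). The related coactivator Ppargc1b differed by -0.20 between the same groups (adjusted p = 0.345). Over the 51 tested genes of the 3 kinds of list, 6 (11.8%) had an unadjusted p-value under 0.05 in Active against Inactive, 6 (11.8%) in Activity Reduction against Inactive and 13 (25.5%) in Activity Reduction against Active, beside the 10.9%, 7.73% and 13.3% of all genes.

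Whether mice with more Ostn than others of their group also had more or less of a receptor was examined over the 21 libraries after group means were subtracted, so that the differences for which Ostn was chosen were not used. None of 5 relations passed a permutation test. For Npr1, Pearson's r was 0.02 (two-sided permutation p = 0.944, Spearman's rho 0.07, p = 0.753), and for Npr2 it was -0.26 (permutation p = 0.260, rho -0.23, p = 0.314). For Npr3, r was -0.32 (permutation p = 0.219, rho -0.08, p = 0.737). That value rested on Activity Reduction replicates 3 and 4, without which r was 0.0046. For Foxo1, r was -0.24 (permutation p = 0.401, rho -0.16, p = 0.536), and for the Myh4 share it was 0.14 (permutation p = 0.590, rho 0.10, p = 0.692). Adjusted over the 5 relations, p was between 0.649 and 0.944 for r and 0.753 for each rho. Without the 2 libraries farthest from the median of the other measure, r was 0.16 for Npr1, -0.04 for Npr2, -0.22 for Foxo1 and 0.16 for the Myh4 share. Within the 8 libraries with more and the 13 with fewer liver transcripts, r was 0.08 and 0.04 for Npr1 and 0.04 and -0.14 for Npr2. It was 0.20 and -0.49 for Npr3, -0.20 and -0.27 for Foxo1, and 0.46 and 0.0047 for the Myh4 share. None passed the permutation test in the 13 libraries. The 8 libraries held 1 Inactive mouse, and their 5 Active Ostn values lay within 2744 to 2833. Their r values thus rest mostly on the 2 Activity Reduction libraries, with Ostn at 1636 and 2825. Swapping this pair mainly changes the sign of r, so the permutation test could hardly pass there and shows nothing.

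The transcripts whose levels followed each of the 4 genes most closely across mice were listed. Likeness was Pearson's r of log2 normalized counts over 21 libraries after subtraction of group means, among 11012 genes with a mean of at least 100 normalized counts, and the values describe these libraries. Ostn was most like Capn1 (0.77), a calcium-activated protease, E130311K13Rik (0.74) and Neurl1a (0.74), and most unlike Rsl1d1 (-0.85), Pafah1b2 (-0.82) and Napepld (-0.76). Npr1 was most like Pelo (0.83), a ribosome rescue factor, Gm31015 (0.78) and Cat (0.75), which encodes catalase, and most unlike Pdxdc1 (-0.80), Slc35e1 (-0.78) and Gzmm (-0.77). For Cat, r fell to 0.56 when the liver division was also subtracted. Npr2 had the highest values, with Pcx (0.92), the pyruvate carboxylase gene, Tmem94 (0.91) and Txndc5 (0.89), against Klhl33 (-0.91), Art1 (-0.85) and Cltc (-0.84), the clathrin heavy chain. Npr3 was most like Arhgap24 (0.79), C1qc (0.73), a complement gene of macrophages, and Pdia3 (0.72), and most unlike Rpusd4 (-0.81), Vti1b (-0.79) and Jagn1 (-0.73). The 4 genes shared none of these neighbours, but with only 3 named at each end among 11012 genes this carries no information. The values were not tested against the extremes that chance gives among so many genes.

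Over the same 21 libraries, the receptors also differed in the cell type markers they followed. Npr1 had an r of 0.47 with summed endothelial markers (0.54 with the liver division also subtracted) and 0.63 with the liver list (0.33). Npr3 had an r of 0.58 with macrophage markers, 0.49 with the myosin heavy chains, 0.40 with Schwann cell markers and 0.37 with adipocyte markers. With the liver division also subtracted these were 0.58, 0.48, 0.51 and 0.37, and r with the liver list was -0.41 in place of -0.09. Npr2 lay between -0.31 and 0.22 with the 9 lists, and with the division subtracted it reached -0.45 with Schwann cell markers and -0.35 with adipocyte markers. Ostn had an r of -0.41 with fibroblast markers and -0.33 with endothelial markers (-0.47 and -0.39 with the division subtracted). These values are given as a description, and the points share library depth and the liver division.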

How the data were processed

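The authors used fastp for trimming, RNA STAR for alignment (GRCm39) and featureCounts for counting. Versions, annotation release and strand setting are not given in the sources used here. The deposited values are raw counts per gene, and a table named as normalized held the same counts and was not used. No 2 libraries of the same group were repeats, over 63 pairs, and pairs from different groups were not compared for this. Counts were tested with edgeR 4.0.16 (R 4.3.3), with TMM factors, filterByExpr, 1 model of 21 libraries and Benjamini-Hochberg adjustment over 16129 genes. The authors used DESeq2, run here (1.42.0) as an alternative. Logs of normalized counts used a pseudocount of 0.5. Levels are per length rather than TPM, since 79.9% of symbols had a length. The scripts were tested on simulated data.

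The members and gene lists were chosen with earlier results of these data known. Named were the 4 genes, the ligands, every listed gene past the thresholds or with an unadjusted p-value under 0.05, and for each of the 4 the 3 most and least similar genes. Foxo1 was named as a regulator tested with Ostn, and Myl7 after its values were seen. Sequences are GRCm39 with GENCODE vM39, and 1 ligand stretch is not reported here. Alternatives were RLE factors, no filter, DESeq2, a replicate block, the liver division, and leaving out each library.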

Additional observations from a re-analysis of the deposited data

Results flagged for a closer look

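In groups of 7 libraries, the gap between an extreme value and its neighbour was set against the group's range (Dixon's test, 95% critical value). Of 66 groups over 22 genes, 5 held such a library, where chance flags about 1 in 20 groups. Ostn had 3929 normalized counts in Inactive replicate 5, with the next Inactive library at 2993, and 2433 in Active replicate 6, with the other Active libraries from 2744. Npr2 had 4052 in Inactive replicate 1, the only Inactive library with more liver transcripts. Rgs2 had 382 in Active replicate 2. Foxo1 had 3650 in Inactive replicate 7, against an Inactive median of 1006. Ostn in that library was 2746.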

How the results depend on the processing

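The log2 fold changes of Ostn kept their direction under all alternatives run, except for Active against Inactive within the 8 libraries with more liver transcripts (0.18, with 1 Inactive library), and 0 receptors or listed pathway genes were called under any of them. Because Ostn was chosen for its Activity Reduction differences in these libraries, its kept direction is no test of them. Receptor values near 0 changed sign. With the liver division as a covariate, Npr2 was -0.0051 for Active against Inactive and Npr1 was -0.0218 for Activity Reduction against Inactive. Npr1 in that comparison was -0.00095 with DESeq2 on the 2 groups compared and -0.0034 without the filter. In the libraries with fewer liver transcripts alone, Npr1 was -0.0147 and Npr3 0.0525 for Activity Reduction against Inactive, and Npr2 was -0.0296 for Activity Reduction against Active. Leaving out single libraries gave -0.0346 to 0.073 for Npr2 (Active against Inactive), and -0.0253 to 0.0488 for Npr1 and -0.147 to 0.0658 for Npr3 (Activity Reduction against Inactive). The count of pathway genes lower at an unadjusted p-value under 0.05 in Activity Reduction against Active fell from 7 to 2 in the libraries with fewer liver transcripts, a setting added for this count after seeing the data, which has fewer mice, while the share over all genes fell from 6.44% to 2.39%. With the liver covariate, Npr1 was 0.0018 for Active against Inactive in place of 0.11 and -0.02 for Activity Reduction against Active in place of -0.10.

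Replicate numbers did not mark pairs, since 7 of 21 same-numbered pairs had a correlation over 0.1 and 7 of 42 best matches in another group shared the number. With the replicate block, Ostn was -0.54 for Activity Reduction against Inactive and -0.45 against Active, and the genes called in the 3 comparisons numbered 0, 4 and 0 in place of 0, 2 and 0. Depth does not limit the receptors, which had at least 272 normalized counts in every library, but it leaves the ligands, at 0 to 16 counts, untested. Spread between 7 mice limits Npr3 most.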
